A study of Mus musculus with 125 samples.

Results

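Open chromatin of brain vessels was compared with that of trunk vessels in mouse embryos, with ATAC-seq, an assay in which a transposase cuts and tags DNA that nucleosomes leave accessible. The comparison used 7 of the 66 ATAC-seq libraries of the series: 3 titled brain endothelial and 4 titled trunk endothelial, both of age E12. Per the labels, pregnant dams were given tamoxifen (0.015 mg/kg, intraperitoneally) at E10.5 and embryos were taken at E12.5. GFP in the vessels of each embryo was checked by immunofluorescence, and both organs went through the same scheme. The driver line, the strain, the sex and the step that separated endothelial nuclei are not given in the sources used here. The labels do not say whether replicates came from separate litters or from pools, so every p-value measures the spread between these libraries. One E12 input library each of brain and trunk, made from nuclei that were not restricted to endothelium, served as a reference, and endothelial libraries of E12 heart, of P6 and of adult organs were used to look at the same regions in other samples.

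Endothelial cells line all blood vessels, and they take on features of the organ they serve. Vessels that grow into the embryonic brain respond to Wnt ligands of the neural tube through Frizzled receptors, and the resulting β-catenin signal, acting with TCF/LEF factors on DNA, is needed for growth into the brain and for the blood-brain barrier with its tight junctions and nutrient transporters. Vessels of the trunk supply many tissues and include venous, lymphatic and fenestrated or sinusoidal beds. Hox genes, which lie in clusters, give cells of the trunk their position along the body axis and are mostly silent in the forebrain.

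Each deposited list was cut to the 69606 peaks with the highest −log10 q-value, which is the length of the shortest list, trunk 2. The 7 cut lists, called trimmed lists here, merged into 103942 regions. A region was called brain-only when all 3 brain and none of the 4 trunk trimmed lists had a peak in it, and trunk-only in the reverse case. There were 1750 brain-only regions, 1.68% of all, and 1452 trunk-only regions, 1.4% of all. The words refer to trimmed lists: many such regions have a weaker peak further down the other organ's whole list, and a region with no peak there either is called strict. Each region was assigned to the protein-coding gene with the nearest end within 100 kb.

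Few of these regions lay at promoters. Of the RefSeq promoter windows of assembly GRCm38.p6, which run from 250 bases before to 50 bases after a gene start, 34 lay in brain-only regions and 62 in trunk-only regions. Hoxd8 and Hoxa3, which encode homeobox factors, are shown first because, among the list members with a window in the promoter table, they were those whose window lay in a trunk-only region. Nat8, which encodes an acetyltransferase, and Blvrb, which encodes a biliverdin reductase, are shown as brain-only promoters, chosen after their values were seen. Capitals mark a TCF/LEF motif, CTTTGA, or a SOX motif, AACAAT, where a search of both strands found one. The windows are chr2:74704365-74704664 on the plus strand for Hoxd8, chr6:52213018-52213317 on the minus strand for Hoxa3, chr6:85836808-85837107 on the minus strand for Nat8 and chr7:27452168-27452467 on the plus strand for Blvrb, each written 5′ to 3′.
Hoxd8: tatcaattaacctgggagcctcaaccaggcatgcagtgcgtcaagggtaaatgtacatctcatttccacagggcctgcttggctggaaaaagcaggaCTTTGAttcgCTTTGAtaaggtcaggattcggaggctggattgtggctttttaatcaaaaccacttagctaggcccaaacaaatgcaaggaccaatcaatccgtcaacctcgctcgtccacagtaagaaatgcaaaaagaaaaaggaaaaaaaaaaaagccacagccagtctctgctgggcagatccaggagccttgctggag
Hoxa3: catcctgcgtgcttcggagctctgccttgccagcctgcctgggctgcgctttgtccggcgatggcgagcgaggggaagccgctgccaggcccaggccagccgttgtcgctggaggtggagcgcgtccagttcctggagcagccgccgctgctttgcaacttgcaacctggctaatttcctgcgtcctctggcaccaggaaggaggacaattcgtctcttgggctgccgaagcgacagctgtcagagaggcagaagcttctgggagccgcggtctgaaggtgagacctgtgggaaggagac
Nat8: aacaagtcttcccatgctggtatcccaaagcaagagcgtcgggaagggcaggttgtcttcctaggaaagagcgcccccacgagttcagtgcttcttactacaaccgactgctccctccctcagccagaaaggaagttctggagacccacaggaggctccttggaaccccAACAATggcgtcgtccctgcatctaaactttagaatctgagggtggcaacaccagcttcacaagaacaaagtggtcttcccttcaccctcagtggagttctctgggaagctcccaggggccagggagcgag
Blvrb: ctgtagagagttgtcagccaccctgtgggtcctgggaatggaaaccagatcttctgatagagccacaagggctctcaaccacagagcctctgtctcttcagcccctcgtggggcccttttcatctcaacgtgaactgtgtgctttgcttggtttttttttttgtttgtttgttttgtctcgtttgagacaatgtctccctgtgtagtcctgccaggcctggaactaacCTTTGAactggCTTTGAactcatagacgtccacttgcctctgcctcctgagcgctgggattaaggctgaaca

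The Hoxd8 window holds 2 copies of CTTTGA, the Hoxa3 window holds none of the 6 motifs searched, Nat8 holds 1 AACAAT and Blvrb holds 2 CTTTGA. The trunk-only regions of Hoxd8 and Hoxa3 also had a weaker peak in the whole lists of all 3 E12 brain libraries. A TCF/LEF motif, CTTTGA, was found in 8 of the 34 brain-only windows, 23.5%, in 9.68% of the 62 trunk-only windows and in 16% of all 32851 windows. A FOX motif, GTAAACA, was in 11.8%, 3.23% and 3.65% of the same groups, an ETS motif, CCGGAA, in 2.94%, 9.68% and 14.9%, and a SOX motif, AACAAT, in 20.6%, 16.1% and 10.7%. A GATA motif, AGATAA, was in 20.6%, 17.7% and 11.2%, and a HOX motif, CAATAAA, in 5.88%, 4.84% and 4.60%. Over the 16427 windows that lay in a region of any of the 7 trimmed brain and trunk lists, the shares were 11.8% for TCF/LEF, 2.53% for FOX, 25.0% for ETS, 6.32% for SOX, 6.29% for GATA and 2.49% for HOX. AACAAT can overlap CAATAAA and GTAAACA, and both matches are then counted. At P6 the Nat8 window had a peak in 1 brain, 2 retina and 0 peripheral libraries, and in adults in both brain libraries and in no other; the Blvrb window had one in 1 P6 brain library. With 34 and 62 windows these shares are a description, and a match is neither a bound site nor a cause.

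The lists differed in depth and in read processing. Whole lists held 101322, 111142 and 111132 peaks in brain 1 to 3 and 83981, 69606, 89749 and 107071 in trunk 1 to 4. Tags kept by the peak caller ranged from 31.8 to 42.3 M (mega) in brain and from 23.9 to 59.1 M in trunk. The read files named in the headers carry 1 set of processing tags in the 3 brain libraries and another in the 4 trunk libraries, so at E12 organ and read processing cannot be told apart. In these bulk preparations a region open in fewer nuclei and a region less open in each nucleus cannot be told apart either.

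The endothelial label was checked against 20 general endothelial genes. A trimmed-list peak lay within 1 kb of an end of 18 or 19 of them in each of the 7 libraries, against 7 in the brain input and 10 in the trunk input. Of 20 genes of neural progenitors and neurons, 16, 9 and 14 had such a peak in brain 1 to 3 and 13, 15, 14 and 12 in trunk 1 to 4, against 20 in the brain input and 17 in the trunk input. Open regions summed over the neural list were 103 in brain 1 but 62 and 76 in brain 2 and 3, against 75 to 83 in trunk and 99 in the brain input. In summed regions brain 1 was close to the input, in genes with a peak at an end it was closer to trunk 2, and the part of neural nuclei in the brain-only regions was not tested. Lists for mural cells, trunk mesenchyme, blood cells and trunk epithelium had 6 to 10, 8 to 10, 4 to 6 and 4 to 7 genes with such a peak over the 7 libraries, with overlapping organs.

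Most open chromatin was common to both organs. The Jaccard index, the bases covered by both lists over the bases covered by either, was 0.666, 0.680 and 0.729 for the 3 brain pairs (mean 0.692 ± 0.033, SD). It ranged from 0.621 to 0.677 for the 6 trunk pairs (mean 0.651 ± 0.021) and from 0.560 to 0.703 for the 12 pairs of a brain with a trunk library (mean 0.614 ± 0.040). Pairs within an organ shared more on average, by 0.0501, but the ranges overlapped. An exact permutation test over all 35 assignments, 2-sided, gave p = 0.0571, where the smallest possible p is 0.0286.

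Trunk 4 stood apart from the other trunk libraries. Its list shared more with brain 2 (0.703) than with any trunk library (at most 0.677), and its mean index with its own organ was 0.0112 below that with brain. In the other 6 libraries the mean with the own organ was higher, by 0.042 to 0.0877. Trunk 4 was the deepest library, with 59.1 M tags and the longest trunk list. Without it the difference within minus between was 0.0725 (exact permutation p = 0.1, the smallest that 3 against 3 allows).

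**Figure D1:**
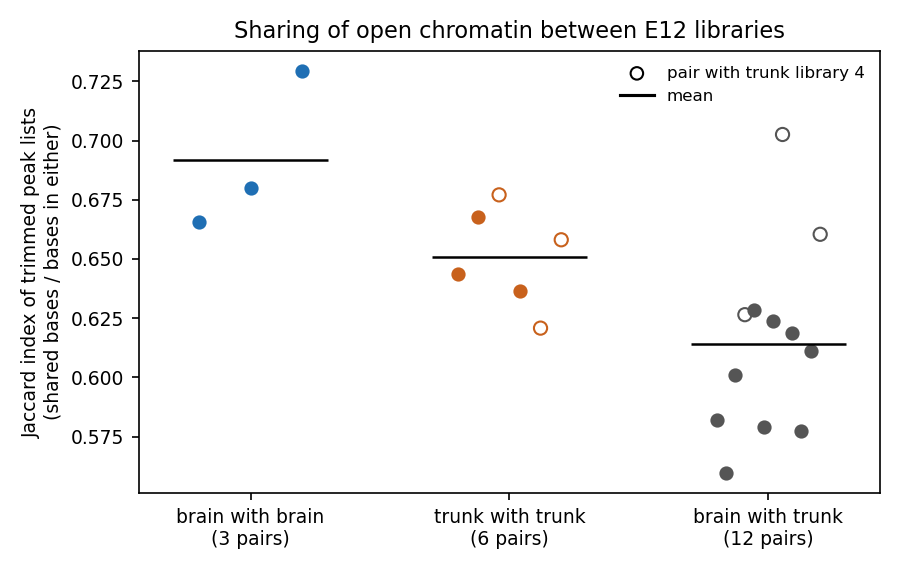
Jaccard index (y axis, shared bases over bases in either trimmed list) for each pair of E12 endothelial libraries, grouped by kind of pair, with lines at the means and open symbols for pairs with trunk 4. Pairs within brain average 0.692, within trunk 0.651 and between organs 0.614, and the highest pair between organs, 0.703, is trunk 4 with brain 2.

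The position of trimmed-list peaks differed by less than the spread between replicates. The share of peaks within 1 kb of a gene start was 19.1 ± 0.457% in brain (SD, n = 3) and 19.4 ± 0.431% in trunk (n = 4), a difference of -0.32 percentage points (exact permutation p = 0.429). The median peak was 566 ± 15.3 bp wide in brain and 487 ± 58.6 bp in trunk (exact permutation p = 0.114). Trunk 4, at 572 bp, was as wide as the brain libraries, which ranged from 549 to 579 bp, while trunk 1 to 3 ranged from 443 to 477 bp.

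Few regions that differed between organs lay at gene starts. Over all regions the median width was 580 bp, 14.7% lay at a gene start, and the median distance to a gene end was 20.1 kb. Of all regions, 44126, or 42.5%, had a peak in all 7 trimmed lists. Their median width was 894 bp, and 26.7% of them touched a 1 kb window at a gene start. Brain-only regions had a median width of 509 bp, and 3.19% of them (54 of 1695) lay at a gene start. Trunk-only regions had a median of 542.5 bp, and 5.10% (72 of 1413) lay at a gene start. Regions open in all 7 merge up to 7 peaks, which widens them. The median distance to a gene end was 28.2 kb for brain-only and 38.1 kb for trunk-only regions, against 11.5 kb for regions open in all 7. Inside gene spans lay 52.1% of brain-only, 51.7% of trunk-only and 63.5% of shared regions.

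No single region could pass a test. With 3 libraries against 4, Fisher's exact test on presence cannot go below p = 0.0286, which becomes 0.927 after Benjamini-Hochberg adjustment over all regions, so the classes are descriptions. Leaving out a library drops a requirement of the rule, so the counts then rise by construction. Without brain 1 there were 2831 brain-only regions, and without brain 2 there were 3161 brain-only and 2255 trunk-only regions.

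Strict regions were a smaller set, 557 brain-only (0.536% of all regions) and 251 trunk-only (0.241%). Of the brain-only regions, 16.5% had a peak in the whole list of trunk 1, 0% in that of trunk 2, which was not cut, 30.4% in trunk 3 and 61.5% in trunk 4. Of the trunk-only regions, 43.9%, 76.8% and 60.9% had one in the whole lists of brain 1 to 3. For trunk-only regions, much of the difference was therefore one of rank within a list rather than of presence, mainly against brain 2 and 3. For brain-only regions the same held against trunk 4, while most of them had no peak in the whole lists of trunk 1 to 3.

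At Wnt genes, brain-only regions made up a larger share of the open regions than over all genes. This and the other gene lists were chosen with earlier results of these data known, so their shares are a description. The list holds 24 genes of receptors, co-receptors, transcription factors and feedback targets of the pathway. Of the 282 regions assigned to them, 12, or 4.26%, were brain-only, at 10 of the 24 genes, and 3, or 1.06%, were trunk-only. Over all genes, 1379 of 85830 assigned regions were brain-only, 1.61%, and 1052 were trunk-only, 1.23%. The excess of brain-only regions at Wnt genes was 2.65 percentage points, and it ranged from 0.559 with strict regions to 2.996 over the alternatives tried. Without brain 1 it was 1.91. At 50% of the trimmed length the order turned, with 5 brain-only (3.03%, against 1.92% over all genes) and 6 trunk-only regions (3.64%, against 1.18%).

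The co-receptors for brain-specific Wnt signals were among these genes. Reck, a membrane-anchored protein that binds Wnt7 ligands, had a strict region inside the gene at chr4:43919577-43920069. The authors' −log10 q there was 9.83, 7.52 and 15.0 in brain 1 to 3, and no trunk list and no E12 input list had a peak. All 3 brain and all 3 retina libraries of P6 had a peak there, as did 2 of 2 brain and 2 of 2 retina libraries of adults, and none of the 8 lung, heart, kidney and liver libraries of either age did. Adgra2, also known as Gpr124, the receptor that works with Reck, had a strict region 13.3 kb away at chr8:27071818-27072207. Its −log10 q was 7.59, 7.92 and 9.05, and at P6 it was seen in 1 brain and 1 retina library only. Lrp6, the co-receptor of Frizzled proteins, had a brain-only region that 3 trunk whole lists and all 8 peripheral libraries of P6 also held, so its restriction was one of rank.

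Transcription factors of the pathway formed the next group. Lef1, a DNA-binding partner of β-catenin, had 2 brain-only regions. One, at chr3:131107617-131107965, 2.33 kb from the gene, was strict and was seen in 1 P6 retina library only. The other, inside the gene at chr3:131137067-131137657, had −log10 q of 10.9, 10.8 and 9.63 and a peak in 2 of 3 brain, 3 of 3 retina and 0 of 8 peripheral libraries of P6. The brain and trunk inputs and the whole list of trunk 4 also held a peak there. Tcf7, a factor of the same family, had a brain-only region at chr11:52309384-52309989, 26 kb away, with −log10 q of 17.5, 11.4 and 18.2, the highest of the Wnt list in brain 1. It was seen in 3 of 3 brain and 0 of 8 peripheral P6 libraries, and in both adult brain libraries. Tcf7l1, usually a repressor of Wnt targets, had 1 region in each class, at chr6:72813436-72814054 (brain-only) and chr6:72680866-72681507 (trunk-only). The whole lists of trunk 1, 3 and 4 and the brain and trunk inputs held a peak in the brain-only one. In the trunk-only one, the whole lists of brain 2 and 3 held a peak. Trunk 4 also held one in the region of Tcf7. Tcf7l2, of the same family, had a trunk-only region and no brain-only one. It lay at chr19:55985486-55985968, with −log10 q of 7.68, 5.03, 4.42 and 19.2 in trunk 1 to 4. The whole list of brain 2 and the trunk input held a peak there as well.

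Feedback targets were represented as well. Axin2, a negative regulator that the pathway itself switches on, had 2 brain-only regions, 1 inside the gene at chr11:108928754-108929097 and 1 at chr11:109041413-109041729, 90.6 kb away. The former was found in 2 of 3 brain, 3 of 3 retina and 0 of 8 peripheral P6 libraries, the latter in none of them. Nkd1, another feedback inhibitor, had a region at chr8:88595904-88596346, 1.02 kb from the gene, with the same counts at P6 as the former Axin2 region and a peak in both adult brain libraries. Wif1, a secreted inhibitor, had a region at chr10:121096009-121096552 that 3 of 3 brain, 3 of 3 retina and 2 of 8 peripheral P6 libraries shared, and that 3 of 4 E12 heart libraries also held. The whole list of trunk 4 held a peak in both Axin2 regions and in those of Nkd1 and Wif1, and that of trunk 3 in the Nkd1 region. Fzd4, the Frizzled receptor of retinal and brain vessels, stood on the other side, with a strict trunk-only region at chr7:89423246-89423746 (−log10 q 5.48, 4.17, 5.41 and 7.89). The brain, trunk and heart inputs held a peak in that region. Of the 12 brain-only regions of the list, 7 were found at P6 in brain but not in peripheral libraries (445 of 1379 over all genes), 3 in both and 2 in neither. A peak in the E12 brain input was present in 5 of the 12, against 298 of 1379 over all genes. Counting only brain-only regions with no peak in that input, the share at Wnt genes was 2.48%, against 1.26% over all genes. In the 4 endothelial libraries of E12 heart, 8 of the 12 had no peak, and those of Adgra2, Tcf7l1, Lrp6 and Wif1 had one in 1, 2, 3 and 3 libraries. The whole lists of heart 1 to 4 held 22.7, 22.5, 0.971 and 23.7% of all 1750 brain-only regions, so a missing heart peak was common at any gene.

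**Figure D2:**
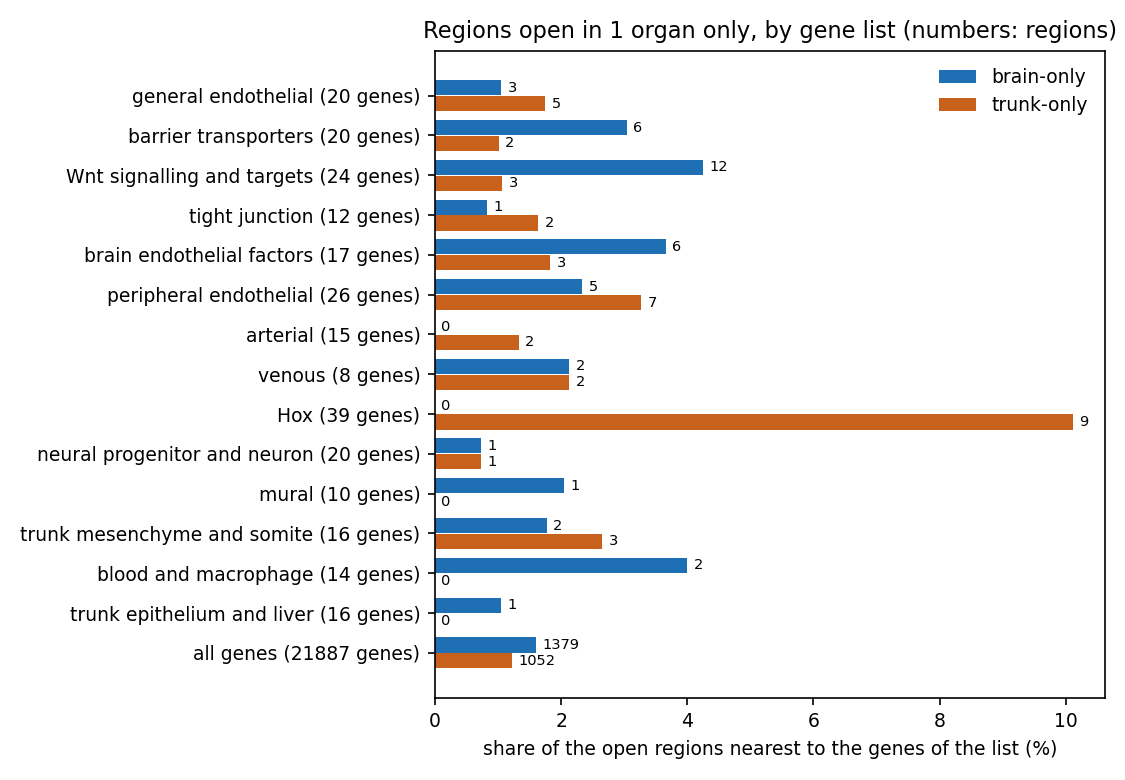
Share of the regions nearest to the genes of each list (x axis, percent) that were brain-only or trunk-only, with the number of regions beside each bar; the bottom pair is all genes. Brain-only regions reach 4.26% at Wnt genes and trunk-only regions 10.1% at Hox genes, against 1.61% and 1.23% over all genes.

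Barrier transporters also had more brain-only than trunk-only regions. Of 197 regions at 20 transporter genes, 6 were brain-only (3.05%) and 2 trunk-only (1.02%). Slco1a4, an organic anion transporter of the barrier, had a strict region inside the gene at chr6:141827616-141828280 with −log10 q of 6.69, 8.75 and 13.6. It was present in all 3 brain, all 3 retina and none of the 8 peripheral libraries of P6 and kept that pattern in adults, with 2 of 2, 2 of 2 and 0 of 8. Slc38a3, a glutamine transporter, had a strict region at chr9:107663304-107663615, found in 2 brain and 1 retina library of P6 and both adult brain libraries. Abcc4, an efflux pump, had a region at chr14:118641497-118641965 in 2 brain, 3 retina and 0 peripheral P6 libraries. Slc39a10, a zinc transporter, had a strict region found later in 1 P6 brain library. Of the 6 regions, 4 were found at P6 in brain and not in peripheral libraries, against 445 of the 1379 brain-only regions at all genes. The excess over all genes was 1.44 percentage points and ranged from 0.530 to 2.53 over the alternatives.

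Factors that mark brain endothelium had 6 brain-only regions among 164 (3.66%) and 3 trunk-only ones (1.83%), against 1.61% and 1.23% over all genes. The brain-only excess was 2.05 percentage points and ranged from 0.715 with strict regions to 7.71 at 50% of the trimmed length. Of the 6 regions, 2 are those of Lef1, which the Wnt list also holds. Foxq1, a forkhead factor, had a region 3.52 kb away at chr13:31564499-31564893 that 1 brain and 1 retina library of P6 held. Foxp1, also a forkhead factor, and Prdm16, a zinc finger regulator of arterial endothelium, each had 1 region in each class. The brain-only one of Prdm16, at chr4:154406846-154407359, was strict. The tight junction list had 1 brain-only and 2 trunk-only regions among 122 (0.82% and 1.64%, against 1.61% and 1.23% over all genes), and the order turned in other settings. Without brain 2 there were 6 and 2 (4.96% and 1.65%, against 2.84% and 1.97% over all genes), and with whole lists 3 and 0 (1.71% and 0%, against 2.62% and 0.298%). The brain-only one lay inside Ocln, which encodes occludin, at chr13:100532893-100533323, with −log10 q of 14.4, 12.5 and 15.1, and 3 of 4 E12 heart libraries had a peak there. Both trunk-only ones were nearest to Tjp1, which encodes the scaffold ZO-1.

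Peripheral endothelial genes had 7 trunk-only regions among 214 (3.27%, against 1.23% over all genes) and 5 brain-only ones (2.34%, against 1.61%). The marker list of trunk mesenchyme and somite had 3 trunk-only regions among 113 (2.65%), 2 of them with a peak in the trunk input, and 2 brain-only ones (1.77%). The lists for mural cells and trunk epithelium had 0 trunk-only regions among 49 and 95, against 1.23% over all genes. With so few regions, 0 is near that share. The part of mesenchymal nuclei in the trunk-only regions was not tested. Fabp4, a fatty acid binding protein of capillaries, had a trunk-only region 1.29 kb inside the gene's end at chr3:10205635-10206219. Its −log10 q was 12.4, 6.84, 3.98 and 12.7 in trunk 1 to 4. All 3 brain whole lists held a weaker peak there, and no input list did. It was found in 3 of 4 E12 heart, 0 of 3 brain, 0 of 3 retina and 7 of 8 peripheral P6 libraries. Cd36, a fatty acid receptor, showed the same counts in peripheral and retina libraries of P6 at chr5:17821409-17821840, with 1 brain library. All 3 E12 brain whole lists and the trunk and heart inputs held a peak in the Cd36 region.

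Genes of lymphatic and sinusoidal endothelium were in this list too. Lyve1, a hyaluronan receptor, had a trunk-only region overlapping the gene's end at chr7:110862767-110863339, with −log10 q of 7.98, 2.77, 4.47 and 12.6, found in 6 of 8 peripheral, 2 retina and 0 brain libraries of P6. Mrc1, the mannose receptor, had one at chr2:14235347-14235704 in 6 of 8 peripheral libraries of P6 and in no brain or retina library of that age. At E12, the whole list of brain 2 held a peak in both the Lyve1 and Mrc1 regions, and that of brain 3 in the Mrc1 region. Prox1, the master factor of lymphatic identity, had a strict region 93.7 kb away at chr1:190264544-190265085 in 4 of 8 peripheral libraries. Lyve1 and Mrc1 are also expressed by macrophages. The list for blood and macrophage genes had 4 or 5 genes with a peak in each trunk library. Among its 50 regions 0 were trunk-only, against 1.23% over all genes. At Csf1r and Itga2b, 2 were brain-only (4.00%, against 1.61% over all genes). The part of macrophages in either class was not tested. Going the other way, Stab2, a scavenger receptor of sinusoids, had a strict brain-only region 10.7 kb away, with −log10 q of 8.32, 10.6 and 20.3. Of the 7 trunk-only regions, 5 were found at P6 in peripheral and not in brain libraries and 2 in both, near the 618 of 1052 over all genes. With whole lists the list had 6 brain-only and 2 trunk-only regions, 1.99% and 0.662%, against 2.62% and 0.298% over all genes.

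At Hox genes some regions of the trimmed lists were trunk-only and none was brain-only. Of 89 regions at 39 Hox genes, 9, or 10.1%, were trunk-only, at 8 genes, and none was brain-only, against 1.23% and 1.61% over all genes. The number of Hox genes with a trimmed-list peak within 1 kb of an end was 14, 13 and 12 in brain 1 to 3 and 23, 25, 23 and 22 in trunk 1 to 4. Open regions summed over the list were 39, 36 and 28 in brain and 50, 62, 63 and 55 in trunk, so the organs did not overlap in either count. The inputs differed in the same direction, with 14 Hox genes in brain and 24 in trunk, and 8 of the 9 trunk-only regions had a peak in the trunk input. Restricted to regions with no peak in the organ's own input, the excess over all genes fell from 8.89 to 0.428 percentage points, the lowest of the alternatives, which reached 11.7. With matching by fold enrichment, 3 of 87 regions (3.45%) were trunk-only, and with whole lists at −log10 q of at least 2, 3 were trunk-only and 2 brain-only (2.56% and 1.71%, against 0.227% and 2.85% over all genes).

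The 9 regions came from all 4 Hox clusters. Hoxb8 had one of 2060 bp at chr11:96285224-96287283 and Hoxb9 one at chr11:96270948-96272848, with −log10 q of 6.58, 4.56, 4.89 and 13.5, and of 4.68, 3.89, 5.76 and 13.3, in trunk 1 to 4. The Hoxb8 region was found in 7 of 8 peripheral P6 libraries and the Hoxb9 region in 6, neither in a P6 brain library. The Hoxb9 region was also found in 1 P6 retina library. At E12, the whole lists of brain 1 and 2 held a peak in the Hoxb8 region, and those of all 3 brain libraries in the Hoxb9 region. Hoxd8 had one over its start at chr2:74704344-74706097, which contains the window printed above, in 5 of 8 peripheral and 2 retina libraries of P6. The whole lists of all 3 E12 brain libraries held a peak there too. The Hoxa cluster had regions at Hoxa3 (chr6:52213061-52213620, over the printed window), Hoxa4, Hoxa7 and Hoxa9, those of Hoxa4 and Hoxa9 strict. The whole lists of all 3 E12 brain libraries held a peak in the Hoxa3 region, and those of brain 2 and 3 in the Hoxa7 region. Hoxc4, a paralogue of Hoxa4, had 2 strict regions, 49.0 and 50.4 kb away, at chr15:103085835-103086177 and chr15:103087238-103087632. Both had a peak in the brain, trunk and heart inputs. At P6 the former was found in 1 brain, 2 retina and 0 of 8 peripheral libraries, and the latter in 0, 1 and 4. Over the 9 regions and 4 trunk libraries −log10 q ran from 1.31, at Hoxa3 in trunk 2, to 13.5, at Hoxb8 in trunk 4. At P6, 8 of the 9 were found in peripheral and not in brain libraries, against 618 of the 1052 trunk-only regions at all genes, and in adults 7.

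**Figure D3:**
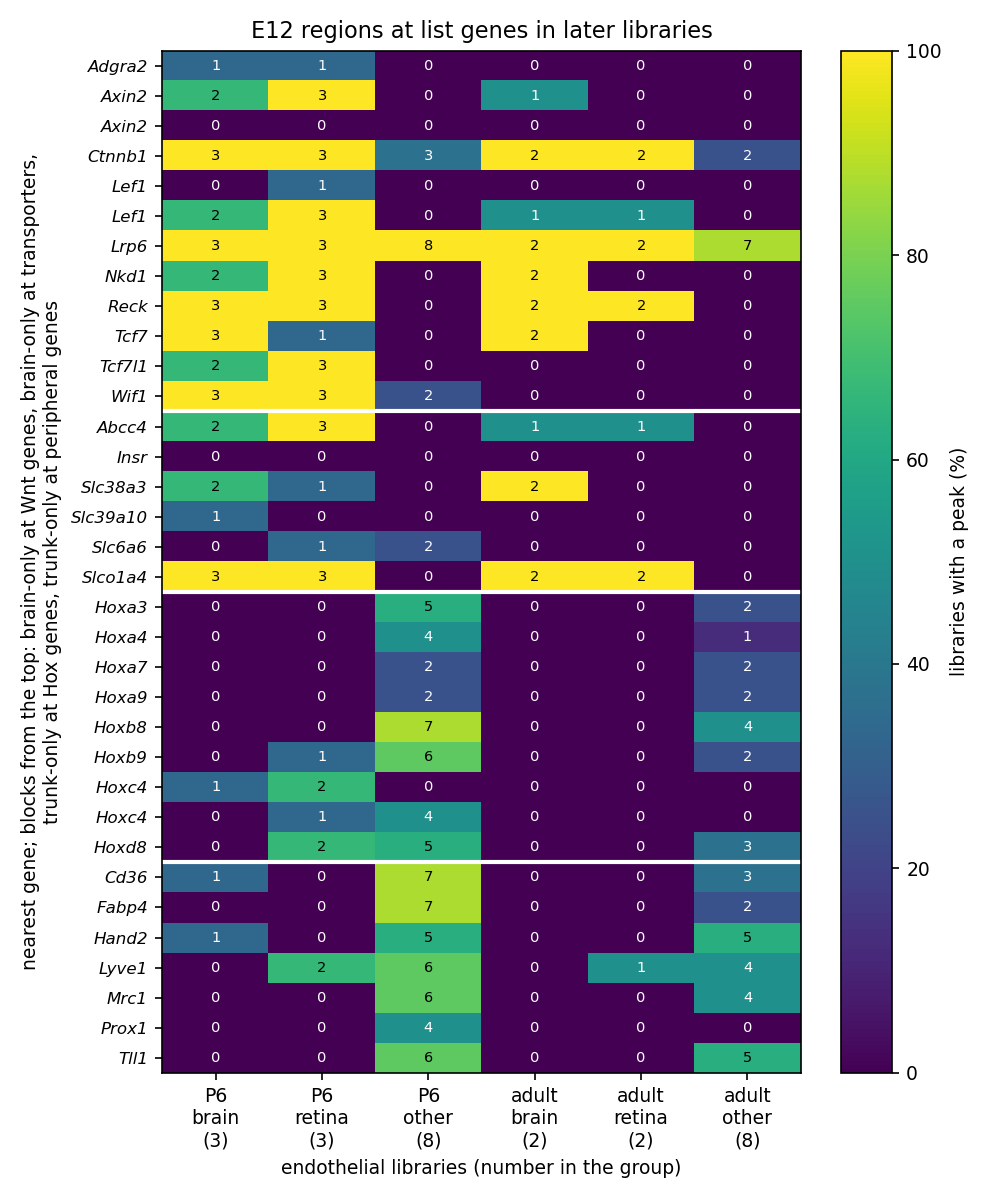
Share of endothelial libraries of each organ group and age (columns, with the number of libraries) that had a peak in each region at a listed gene (lines named by nearest gene). Brain-only regions at Reck and Slco1a4 reach all brain and retina libraries of P6 and adults and no peripheral library, and the trunk-only region at Hoxb8 reaches 7 of 8 peripheral P6 libraries and no brain library.

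General endothelial genes had few regions in either class. Of 286 regions at 20 genes, 3 were brain-only (1.05%) and 5 trunk-only (1.75%), against 1.61% and 1.23% over all genes. With whole lists they were 9 and 0 (2.16% and 0%, against 2.62% and 0.298%). Pecam1, an adhesion molecule of all endothelium, had 1 of each, at chr11:106637211-106638252 (brain-only, −log10 q 14.5, 10.3 and 12.8) and chr11:106684034-106684475 (trunk-only, 3.69, 1.45, 3.21 and 6.21). The whole lists of trunk 1, 3 and 4 and the brain input held a peak in the former, and all 3 brain whole lists in the latter. Ets1, an endothelial transcription factor, had 2 trunk-only regions inside the gene, Cdh5, the cadherin of endothelial junctions, had 1, and Kdr, the main VEGF receptor, had 1 at 52.3 kb. The whole list of brain 2 held a peak in each of these regions of Ets1, Cdh5 and Kdr. The 15 arterial genes had 0 brain-only and 2 trunk-only regions among 150, at Jag2, a Notch ligand, and Nrp1, a VEGF co-receptor. The 8 venous genes had 2 of each among 94.

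The number of open regions per gene was then tested with limma on log2(number + 1), over 10093 genes with at least 3 regions, and a gene passed at an adjusted p under 0.05 and a difference of at least 1 on that scale. There were 5 genes higher in brain, 0.0495% of those tested, and 9 lower, 0.0892%. Differences on this scale understate the change of genes with few regions, and values against a group at 0 are no fold changes. Without a minimum difference, 107 genes were higher and 70 lower, and at an unadjusted p under 0.05 there were 867 and 717. The minimum of 3 regions counts the regions of all 7 lists together. Of the 14 genes that passed, 12 reached it only through the organ where they were higher, 4 through brain and 8 through trunk, against 5.99% and 9.08% of all genes tested. Genes so selected had to differ, so their numbers are a description and no p is given for them; Col4a3 and Atp2b1 reached 3 in the lists of either organ.

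The 5 genes higher in brain were Col4a3, Tnfsf4, Abca17, Xpo7 and Lysmd2. Col4a3, which encodes a collagen IV chain, had 8, 9 and 8 open regions in brain 1 to 3 and 4, 3, 3 and 4 in trunk 1 to 4, a difference of 1.06 (SE 0.112, limma adjusted p = 0.00958), and 3 of its regions were brain-only. Tnfsf4, the ligand OX40L, had 3, 3 and 4 against 1 in each trunk library (a difference of 1.11), and Abca17, an ABC transporter gene, had 3, 4 and 3 against 1 in each. Xpo7, a nuclear transport receptor, had 2, 2 and 1 against 0 in all 4 (1.39). Lysmd2, a gene of a LysM domain protein, had 3 in each brain and 1 in each trunk library. All 5 had organs that did not overlap.

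The 9 genes lower in brain included Hoxc4, Atp2b1 and Fabp4. Hoxc4 had 0 in each brain and 2, 4, 4 and 2 in trunk libraries, a difference of -1.95. Atp2b1, the plasma membrane calcium pump PMCA1, had 2, 3 and 4 against 9, 8, 8 and 9 (-1.28, SE 0.176, limma adjusted p = 0.0334), with 4 trunk-only regions, a number no other gene reached. Fabp4 and Rnaseh2b, a subunit of ribonuclease H2, each had 1 in every brain and 3 in every trunk library (a difference of -1). Dhx57, a gene of a DExH-box helicase family member, had 1, 1 and 1 against 4, 3, 3 and 3 (-1.08). CN725425, Fam240b, Gm4120 and Hira, the last a histone chaperone, had 0 in each brain and 1 or 2 in each trunk library.

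**Figure D4:**
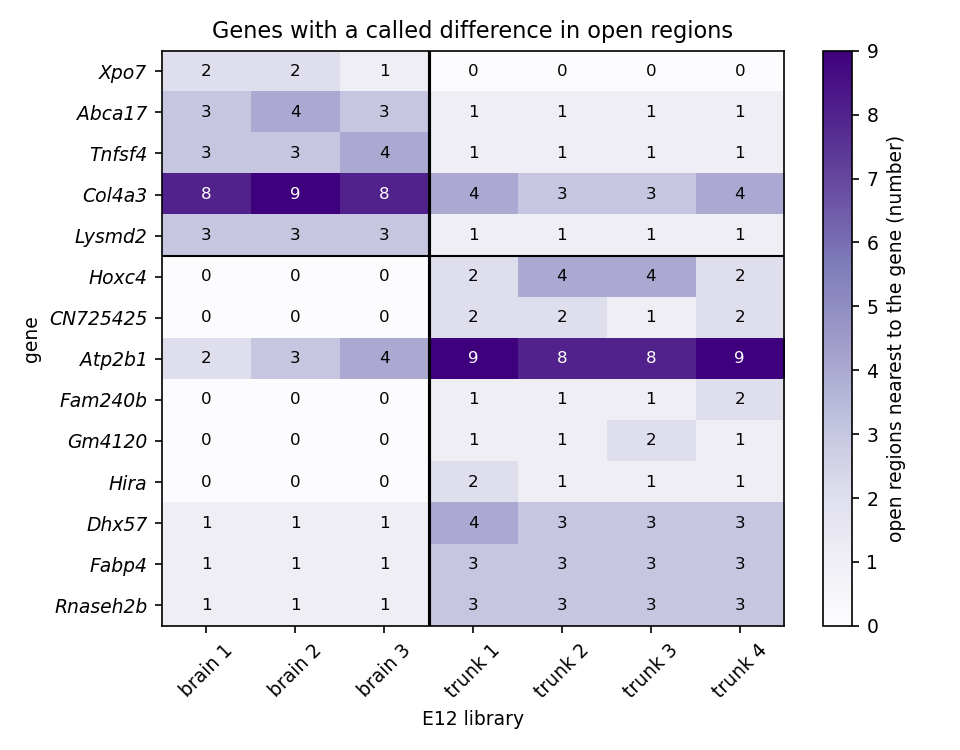
Number of open regions nearest to each of the 14 genes that passed (cells, colour scale) in each E12 library (columns). Brain and trunk libraries do not overlap for any of the 14; Col4a3 has 8 or 9 in brain and 3 or 4 in trunk, and Atp2b1 has 2 to 4 in brain and 8 or 9 in trunk.

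These calls depended on how the lists were matched and on other settings. With gene starts, the positions first planned, 1 gene was higher and 1 lower, with a pseudocount of 0.5 there were 9 and 17, and with a minimum of 1 region 29 and 31. With whole lists, with whole lists at −log10 q of at least 2, with matching by fold enrichment or with peaks that cover 50% of a region, limma called 0 genes in either direction; at an unadjusted p under 0.05 it then had 2427, 2518, 802 and 1228 genes higher and 67, 33, 728 and 314 lower. Fabp4, Atp2b1 and Gm4120 took the opposite sign with whole lists (0.0537, 0.29 and 0.29). Hoxc4, Abca17, Tnfsf4 and Xpo7 kept their sign with whole lists (-1.96, 1.34, 1.19 and 1.08) and did not pass. Without brain 2 there were 9 genes higher, without trunk 1 there were 5 lower, and without trunk 4 there were 9 higher and 4 lower.

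Among the lists, only Fabp4 and Hoxc4 passed, and both reached the minimum of 3 regions only through trunk. The counts and medians of members that follow cover those with at least 3 regions and are a description. Without regard to a test, 369 genes, 3.66% of those tested, had more open regions in each brain than in each trunk library, and 307, 3.04%, had fewer. Members with more in brain were 3 of 23 Wnt, 3 of 17 transporter and 3 of 15 brain endothelial genes and 0 of 23 peripheral and 0 of 14 Hox genes; with fewer, they were 1, 0, 1, 3 and 3. The median difference was 0.17 for Wnt genes, 0.04 for transporters, 0.15 for brain endothelial factors, -0.01 for peripheral genes and -0.53 for Hox genes, against 0.01 over all genes.

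Several other members had organs that did not overlap but did not pass, being short of the minimum difference and above the threshold of p. Wif1 had 4, 3 and 3 open regions in brain and 2 in each trunk library, and Slco1a4 had 3, 4 and 3 against 2 in each (a difference of 0.52 for both). Mrc1 had 1 in each brain library and 4, 3, 2 and 3 in trunk (-0.98), and Hoxa4 had 1 in each and 3, 2, 2 and 2 (-0.69). Wif1 and Slco1a4 reached the minimum of 3 regions only through brain, and Mrc1 and Hoxa4 only through trunk. Genes so selected had to differ, so no p is given for them. Hoxa3 had 2, 3 and 2 against 5, 4, 4 and 4 (-0.66, limma adjusted p = 0.0931). Fzd4 had 12, 13 and 12 against 16, 15, 15 and 14 (-0.26, limma adjusted p = 0.0853), the only Wnt gene with fewer in each brain library. Axin2 had 11, 10 and 10 against 6, 9, 9 and 8 and did not pass (0.35, limma adjusted p = 0.314); Lef1 overlapped, with 13, 12 and 15 against 12, 12, 10 and 12. Cldn5, the main claudin of the barrier, had 9, 9 and 11 against 10, 10, 10 and 11; Plvap, a diaphragm protein of fenestrated vessels, 5, 4 and 5 against 5, 4, 4 and 5; and Mfsd2a, a lipid transporter of the barrier, 4 in all 7.

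Brain-only regions were rare in the inputs. The E12 brain input list held a peak in 22.3% of the brain-only regions (95% Wilson interval 20.5 to 24.4) and the trunk input in 9.60% (8.31 to 11.1). For trunk-only regions the shares were 33.0% (30.6 to 35.4) in the brain input and 43.2% (40.7 to 45.7) in the trunk input. With inputs cut to 69606 peaks, brain-only regions were at 9.26% and 5.54% and trunk-only regions at 13.2% and 33.0%. With whole lists, over all regions they were 56.7% and 49.5%, and over regions open in all 7 they were 72.4% and 69.2%. Neither input held 75.5% of the brain-only, 50.7% of the trunk-only and 38.5% of all regions. The heart input held 17.2% of brain-only and 54.8% of trunk-only regions. Each input is 1 library, with 141866 peaks in brain, 98934 in trunk and 144197 in heart, and the intervals cover counting error only.

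The strict regions with the best worst rank over the brain libraries were named by rule. The first lay inside Tnik, which encodes a kinase of the Wnt pathway, at chr3:28529374-28529921, with −log10 q of 24.4, 22.2 and 32.9 and the authors' fold over local background of 7.86, 7.07 and 8.13. It was found later in 1 P6 retina library only. The region inside Gpr155, at chr2:73366263-73366660, was found in all brain and retina libraries of P6 and adults and in none of the peripheral ones. One near Gm4791, at chr9:47041444-47042028, was in all 3 brain and 3 retina libraries of P6 and also in 2 peripheral ones. The others were nearest to Cited2 (619 kb), Gm11677, Mmut (0.99 kb inside, the gene of methylmalonyl-CoA mutase), Rmi1, Csnk1g3, Tex47 and G2e3, that near Tex47 lying inside Zfp804b. Of the 10, only that near Tex47 had a peak in the brain input and none had one in the trunk input.

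Of the 10 trunk counterparts, 8 had a peak in the trunk input. The first lay inside Pak7, a p21-activated kinase gene, at chr2:136121715-136122275, with −log10 q of 14.9, 12, 14.7 and 23.4 and fold of 5.2, 4.9, 6.36 and 5.75. It was in 4 of 8 peripheral and in no brain or retina libraries of P6. The region nearest to Gm15501 (611 kb) at chr7:93795011-93795630 was in all 8 peripheral and in no brain or retina library of P6, and that inside Shisa9 at chr16:12020244-12020845 was in 6 of 8. The others were nearest to Zfat, Atp2b1 (82.8 kb), Adgrl4, Pdzrn3, Slc10a2, Adra2a and AW209491. Of these 10, that near AW209491 was the only one with a peak in P6 brain, in 2 libraries. Of the 10 in each direction, 9 brain-only and 10 trunk-only ones kept their class with matching by fold enrichment, and 10 and 8 did so at 50% of the trimmed length and with peaks that cover 50% of a region.

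Libraries that had no part in choosing the regions were then examined. At P6 the whole lists of brain held 13.8, 39.8 and 55.3% of the brain-only and 3.37, 20.5 and 19.6% of the trunk-only regions. Retina, which is also part of the central nervous system, held 49.1, 37.8 and 43.7% and 20.0, 17.7 and 19.6%. The order was the reverse elsewhere: heart held 12.4 and 11.5% of brain-only and 54.8 and 53.0% of trunk-only regions, liver 8.34 and 3.71% and 56.2 and 44.1%, kidney 8.91 and 2.86% and 50.3 and 34.5%. Lung came closest to the central nervous system, with 25.0 and 23.5% against 39.9 and 35.7%. E12 heart held 22.7, 22.5, 0.971 and 23.7% of brain-only and 69.4, 71.6, 22.2 and 77.8% of trunk-only regions, where the low values are those of heart 3, a list of 39096 peaks.

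For a test, each P6 list was cut to 27160 peaks and each adult list to 19464, and the share of brain-only minus the share of trunk-only regions was taken. At P6 it was 10.45, 5.03 and 17.4 percentage points in brain, 3.19, 1.34 and 1.78 in retina, and between -28.1 and -3.63 in the 8 peripheral libraries. Brain averaged 11 ± 6.22 (n = 3) and the other 11 libraries -11.1 ± 11.2, a difference of 22.0 (exact permutation p = 0.00549, 2-sided; 0.0110 adjusted over 4 tests). With whole lists the difference was 39.9 and did not pass (exact permutation p = 0.0632). Brain with retina (n = 6) against the 8 others differed by 22.6 (exact permutation p = 0.000666, adjusted 0.00266). The 6 libraries of the central nervous system and the 8 others did not overlap.

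Adult libraries were ordered alike, with brain above the peripheral organs. Brain had 2.87 and 4.04, retina 1.17 and -0.58, and the 8 peripheral libraries between -15.8 and -1.51. Brain minus the other 10 was 9.65 (exact permutation p = 0.0455, the adjusted value also 0.0455), and brain with retina minus the other 8 was 9.69 (exact permutation p = 0.0121, adjusted 0.0162). For the former, leaving out 1 library gave differences from 8.58 to 10.47; the exact permutation p was 0.0727 without heart 1 or either kidney library and 0.0545 without either liver library. Without either brain library it was 0.273, where 1 against 10 cannot go below 0.0909. These tests treat libraries of 1 organ as independent, which can make p too small. With the mean of each organ as 1 value, brain against the 5 other organs differed by 23.4 at P6 and 9.65 in adults (exact permutation p = 0.167 and 0.333; 0.167 is the smallest that 1 against 5 allows), and brain with retina against the other 4 by 22.6 and 9.69 (exact permutation p = 0.0667 and 0.133, the former the smallest that 2 against 4 allows), so none passed. Lists of different ages were cut to different lengths, so sizes at P6 and in adults are not compared.

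**Figure D5:**
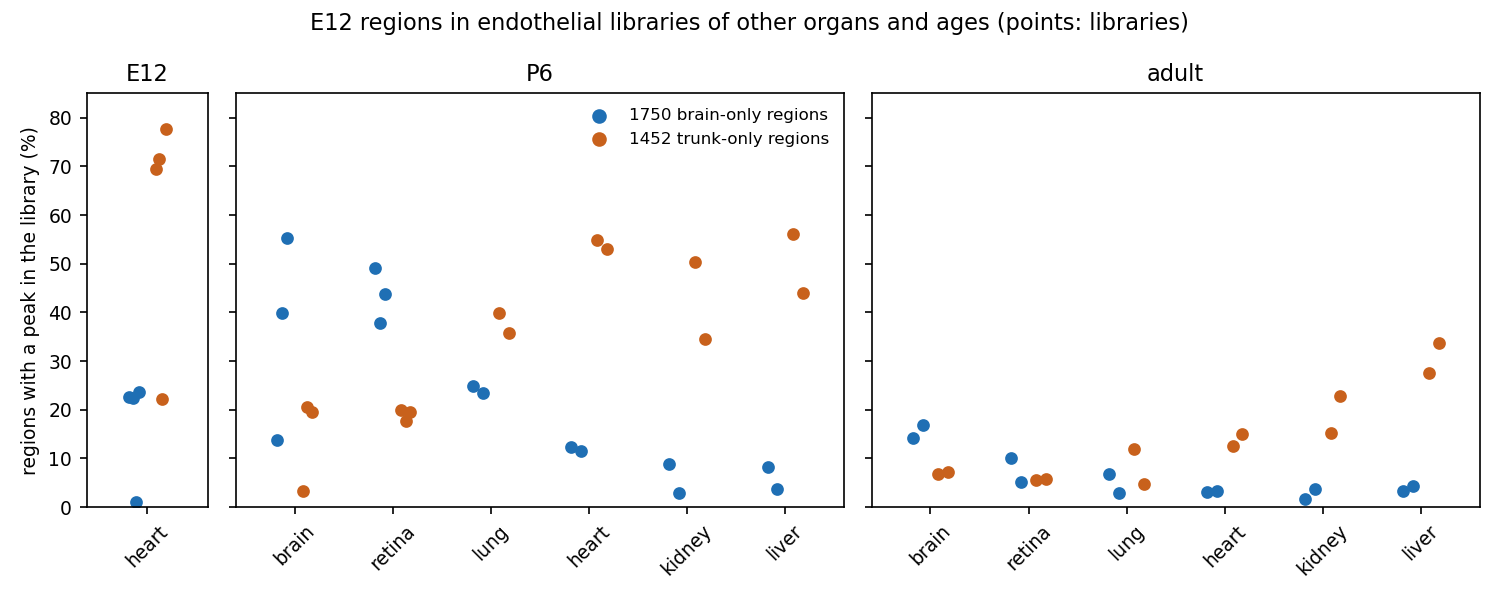
Share of the 1750 brain-only and 1452 trunk-only regions (y axis, percent) with a peak in the whole list of each endothelial library (points) of E12 heart and of P6 and adult organs. At P6 brain and retina libraries hold more of the brain-only than of the trunk-only regions, and lung, heart, kidney and liver libraries hold fewer.

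Read processing also varied among these libraries. Brain 3 of P6, with the highest value (17.4), and both adult brain libraries had the kind of E12 brain, and P6 kidney and liver and adult liver libraries that of E12 trunk. Brain 1 and 2 and the 3 retina libraries of P6 share another kind; within it, brain exceeded retina by 5.64 points (7.74 against 2.1, exact permutation p = 0.1, the smallest that 2 against 3 allows). Peripheral organs have no library of that kind, so brain against peripheral organs within 1 kind cannot be told. With regions called without trunk 4, the 4 differences were 18.6, 19.5, 8.35 and 8.52, with exact permutation p of 0.00549, 0.000666, 0.0303 and 0.00808. Per the submitters, signal tracks of P6 brain 1 and 2 were replaced after deposit; the peak lists used here carry no such note.

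Over any library of P6, 58.5% of brain-only regions were found in brain and 36.9% in a peripheral organ. For 566 of them, 32.3%, it was brain and not the periphery, and for 188, 10.7%, the reverse. Of trunk-only regions, 33, or 2.27%, were in brain and not in the periphery and 855, 58.9%, the reverse. Over all regions the shares were 9.55% and 19.5%. Genes with a brain-only region numbered 1248, 5.7% of 21887 protein-coding genes, and those with a trunk-only region 959, 4.38%.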

How the data were processed

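The authors deposited 1 MACS2 peak list per library and did not pool replicates. Per the file headers, MACS2 2.1.2 was run without a control to call broad peaks (q-value 0.05, broad cutoff 0.1), tags being moved by -100 bp, extended to 200 bp and limited to 1 per position. Each deposited list gives, per peak, the authors' signal (tag pileup, not scaled between libraries), the authors' fold over local background, a ratio, and −log10 values for p and q (p-value and q-value); these were used only to rank or describe peaks within a list. Per the submitters' processing notes, the build was mm10, with Bowtie2, SAMtools 1.13, Picard, DiffBind 3.2, R 4.1 and DESeq2 1.32.0 named with no role. Read processing before peak calling differed between organs at E12, per the file headers, which limits every comparison of brain with trunk.

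Peaks on chromosomes 1 to 19, X and Y were used. Lists were matched to 69606 peaks, and their union was merged on any overlap. Regions were assigned to the nearest end of 21887 protein-coding RefSeq genes (GRCm38.p6) within 100 kb. Gene ends replaced the planned gene starts, since the gene table has no strand and starts were at hand for 17492 of these genes, none on chromosome 18; shares at gene starts leave that chromosome out. Open regions per gene were tested with limma 3.58.1 (trend and robust, R 4.3.3) on log2(number + 1), with Benjamini-Hochberg adjustment over 10093 genes; other tests were exact permutation tests in Python 3.11.15 with SciPy 1.17.1. The limma step was tested on simulated data, where it missed most of the changes put in, so a gene that did not pass is not shown to be alike. Depth was 23.9 to 59.1 M (mega) kept tags; lists give no tag counts per region, so a missing peak means not detectable at that depth.

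Named were all genes that passed (up to 15 in each direction, by size), members of 14 gene lists that passed or had the most brain-only or trunk-only regions, and the 10 strict regions per direction with the best worst rank. Members and lists were chosen with earlier results of these data known. Replicate numbers are shared by brain and trunk, but same-numbered libraries did not deviate together, so they were not paired. Alternatives covered matching, whole lists, overlap, region rules, inputs, pseudocount, minimum regions, gene positions and each replicate left out. RNA-seq of the series was not used here. The result for 1 gene of the lists is not reported here.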

Additional observations from a re-analysis of the deposited data

Results flagged for a closer look

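In groups of 4 to 10 libraries, a highest or lowest library was singled out where its gap to the next, over the range of the group, passed Dixon's 95% value (0.829 for 4). Of 41 groups tested, 10 had such a library, and chance gives about 1 in 20 where values are continuous. E12 heart 3 accounts for 3 of them. Its matched list held 22.2% of the trunk-only regions, where the other E12 heart libraries held 50.7 to 54.7%, and its whole list held 0.971% of the brain-only regions (others 22.5 to 23.7%) and 22.2% of the trunk-only regions (others 69.4 to 77.8%). That library has 39096 peaks from 10.1 M (mega) kept tags, against 101219 to 120456 peaks in the others, and no test in the report uses it.

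Over the gene lists, trunk 2 had 110 regions at brain endothelial factors (other trunk libraries 101 to 102), and trunk 3 had 146 at peripheral endothelial genes (others 152 to 153). The remaining 5 are small whole numbers where 3 trunk libraries tie and 1 differs by 1, which always passes, so that rate does not apply to them: CN725425 with 1 in trunk 3 (others 2), Fam240b with 2 in trunk 4 (others 1), Gm4120 with 2 in trunk 3 (others 1), Hira with 2 in trunk 1 (others 1) and Dhx57 with 4 in trunk 1 (others 3).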

How the results depend on the processing

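The excess of pairs within an organ in the Jaccard index had the same sign in all 11 alternatives, 0.0366 to 0.0725 with 1 library left out (exact permutation p 0.0667 to 0.133). The excess shares of the 5 gene lists tried (Wnt, transporters, brain factors, peripheral, Hox) also kept their sign throughout. Counts of brain-only and trunk-only regions were 1108 and 721 at 50% of the matched number, 4079 and 566 with whole lists, 4141 and 397 with whole lists at −log10 q of at least 2, 4641 and 3420 when 2 of 3 brain or 3 of 4 trunk lists sufficed, and 557 and 251 for strict regions; 825 trunk-only regions had no peak in the trunk input. With 1 library left out they were 2021 to 3161 and 1768 to 2255. Leaving out a library or using the looser rule drops a requirement, and the strict and input rules add one, so those counts shift by construction. The cause of the other shifts was not tested. For the later libraries, brain against other organs at P6 gave 39.9 with whole lists (exact permutation p = 0.0632), and in adults 10.7 with strict regions and 9.94 with regions absent from the own input (p = 0.0909 for both); leaving out 1 adult library gave 8.58 to 10.47 (p 0.0364 to 0.273). With organ means as the unit, an alternative chosen after seeing the data, brain against other organs gave 23.4 at P6 and 9.65 in adults (p = 0.167 and 0.333), and brain with retina 22.6 and 9.69 (p = 0.0667 and 0.133), exact permutation tests that cannot go below 0.167 and 0.0667.

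Genes called by limma, higher and lower in brain, were 0 and 0 with whole lists, with −log10 q of at least 2, with matching by fold enrichment and with peaks covering 50% of a region. They were 1 and 1 with gene starts, 9 and 17 with a pseudocount of 0.5, 29 and 31 with at least 1 region, and 107 and 70 with no minimum difference. Lower genes numbered 14 at 50% of the matched number, and higher genes 10 with regions in neither input. With 1 library left out they were 4 to 9 and 4 to 9. Same-numbered brain and trunk libraries had correlations of deviations of -0.123, -0.110 and -0.146, so the numbers do not pair them; with the replicate block there were 6 and 3. Over 225 settings of the 14 genes, 114 kept the call, 104 lost it and 7 changed sign: Atp2b1 (0.29 and 0.22), Fabp4 (0.0537 and 0.0268) and Gm4120 (0.29 and 0.54) with whole lists and at −log10 q of at least 2, and Gm4120 (0.0487) with matching by fold enrichment. Where the lists give no peak, depth limits what can be said.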

Other observations

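Outside the gene lists, 13 genes had at least 3 brain-only regions and 7 had at least 3 trunk-only regions; of these, only Col4a3 and Atp2b1 passed the limma test. The genes named here were chosen after their values were seen. Chst15, which encodes a chondroitin sulfotransferase, had 4 brain-only regions, and also 2 trunk-only ones. Il1b, the cytokine interleukin-1β, had 3 brain-only regions, 2 of them strict, and 5, 5 and 4 open regions in brain 1 to 3 against 1, 2, 2 and 3 in trunk 1 to 4. Bdkrb2, the bradykinin B2 receptor, had 3 brain-only regions and 12, 11 and 11 against 8, 6, 9 and 7. On the trunk side, Prkg2, a cGMP-dependent kinase, had 3 trunk-only regions and 0, 2 and 2 open regions in brain against 5 in each trunk library. In these genes the organs did not overlap, apart from Chst15. Regions of 1 class add to every library of 1 organ and to none of the other, so genes chosen for them tend to differ by construction. Of all genes tested, 3.66% had more open regions in each brain than in each trunk library, and 3.04% had fewer.

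Of the 62 promoter windows in trunk-only regions, those of Hgf and Tgfb1 are given as examples, named after their values were seen. In the case of Hgf, the hepatocyte growth factor gene, 2 promoter windows lay in trunk-only regions, and 7 of 8 peripheral, 2 of 3 brain and 0 of 3 retina libraries of P6 had a peak in each. A window of Tgfb1, the gene of transforming growth factor β1, was trunk-only at E12 but had a peak in 8 of 8 peripheral, 2 of 3 brain and 3 of 3 retina libraries of P6. Over chromosomes, the share of brain-only regions ran from 1.45% on chromosomes 6 and 7 to 1.95% on chromosome 11, leaving out Y, and that of trunk-only regions from 0.837% on X to 1.95% on chromosome 14.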
